A study of Mus musculus with 2 samples.

Results

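The colony-stimulating factors Csf1, Il34 and Csf2 and the receptor chains Csf1r, Csf2ra, Csf2rb and Csf3r were examined by single-cell RNA sequencing of kidney cells from mice with nephrotoxic nephritis. These 7 genes were taken by name from the 20299 genes of the deposited count matrix, and all of them were present in it. Both libraries came from 8-week-old C57BL/6 mice that had received 200 µg of sheep immunoglobulin G in complete Freund's adjuvant and, 4 days later, 2 µL per g of sheep nephrotoxic serum according to the labels. The study's methods give another serum dose. There was 1 library of wild-type (WT) mice and 1 of Vsir-/- mice, which lack VISTA, an immune checkpoint molecule of the B7 family, in every cell from birth. How many mice went into each library is stated in none of the sources used here. The WT library is labelled as sorted CD45+ cells, whereas the Vsir-/- library is labelled as holding every kind of kidney cell, although the methods describe a CD45+ sort for the experiment. With 1 library per genotype, the genotype therefore cannot be told apart from the library and the composition of its cells. This holds for every transcript, also for those found only in leukocytes.

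CSF-1, also called M-CSF, and IL-34 both bind the receptor tyrosine kinase CSF1R, on which monocytes and tissue macrophages depend for survival and proliferation. In the kidney, tubular cells are a known source of both ligands after injury. GM-CSF, the product of Csf2, is made by activated lymphocytes and signals through a specific alpha chain, Csf2ra, and a beta chain, Csf2rb, that the IL-3 and IL-5 receptors share. G-CSF acts on neutrophils and their precursors through the single-chain receptor Csf3r.

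The WT library held 5470 cells with a median of 4726.5 unique molecular identifiers (UMIs, each counted as 1 transcript) per cell, and the Vsir-/- library 1844 cells with a median of 6673. Vsir itself had 4278 UMIs in the WT library and 8 in the Vsir-/- library. The leukocyte antigen transcript Ptprc was detected in 94.2% of the cells in the WT library and 73.6% of those in the Vsir-/- library. The cells carry the authors' 16 cluster names, among them R1 (resident) macrophages and 2 groups of R2 (infiltrating) macrophages, M2-like and other. Levels are given as CPM, the UMIs of a gene per 1000000 UMIs of the same cells, with a 95% Poisson interval. With 1 library per genotype no test between genotypes was possible, and the intervals cover counting error only, not the variation between mice. They treat each UMI as independent, so they also leave out the uneven spread of a gene's UMIs over cells.

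Some cluster names were only partly borne out by their markers. In the non-EM-like CD4+ T cluster (EM, effector memory), 6 T cell genes (Cd3d, Cd3e, Cd3g, Trac, Trbc1, Trbc2) summed to 5498 CPM in the WT library and 399 CPM in the Vsir-/- library, where 233 of 349 cells had no UMI of any of them. The proliferating cluster showed 2661 and 651 CPM of the same genes. In the cluster named pDC, the conventional dendritic cell list (3801 CPM WT, 9056 CPM Vsir-/-) exceeded the plasmacytoid list (2406 and 1745 CPM). The 2 lists hold different genes, so their sums do not settle the name. Siglech, of the plasmacytoid list, had 53 of its 76 WT UMIs and 243 of its 263 Vsir-/- UMIs in this cluster. Its level there was 200 and 205 CPM. A list of 15 tubular genes was higher in the Vsir-/- library in the clusters that carry the results, for example 163 against 2557 CPM in R1 and 72.1 against 3600 CPM in neutrophils.

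Upstream sequences of 4 of the 7 genes were present in the RefSeq table (GRCm38.p6), those of Csf1, Csf2, Csf2ra and Csf3r. The 250 bases before the transcription start are printed for the receptor chains Csf2ra and Csf3r, whose transcripts were found in the myeloid clusters, and for Csf2, whose transcripts were found in ILC2. In the receptor sequences the capitals mark GAGGAA, the core bound by the myeloid factor PU.1. In the Csf2 sequence they mark AGATAA, to which GATA factors bind. Both strands were searched for each motif, and the motifs do not overlap one another.
Csf3r, chr4:126024409-126024658, plus strand: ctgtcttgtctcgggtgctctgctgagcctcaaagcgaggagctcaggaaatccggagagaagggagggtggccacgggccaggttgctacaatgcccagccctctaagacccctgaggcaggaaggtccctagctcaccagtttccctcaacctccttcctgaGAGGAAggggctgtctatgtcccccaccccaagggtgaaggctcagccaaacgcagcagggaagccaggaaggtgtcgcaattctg
Csf2ra, chr19:61228419-61228668, minus strand: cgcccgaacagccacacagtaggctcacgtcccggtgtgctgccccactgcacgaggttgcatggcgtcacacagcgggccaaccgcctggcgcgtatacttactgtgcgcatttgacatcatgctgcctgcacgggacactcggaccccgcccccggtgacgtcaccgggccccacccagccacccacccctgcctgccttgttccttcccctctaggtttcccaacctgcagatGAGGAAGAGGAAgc
Csf2, chr11:54249900-54250149, minus strand: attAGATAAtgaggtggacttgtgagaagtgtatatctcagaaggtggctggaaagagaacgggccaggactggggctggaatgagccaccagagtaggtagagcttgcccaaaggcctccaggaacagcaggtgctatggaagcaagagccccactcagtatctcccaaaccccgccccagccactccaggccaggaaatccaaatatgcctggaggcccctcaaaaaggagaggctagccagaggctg
GAGGAA occurred once in the Csf3r window, starting 86 bases before the transcription start, and in a pair of adjacent copies in the Csf2ra window, starting 14 and 8 bases before it. No copy of GAGGAA was found in the Csf1 and Csf2 windows. AGATAA was found in the Csf2 window only, 247 bases before the start. Of 27025 promoter windows of the same length, 23.1% held GAGGAA and 10.3% held AGATAA, so that either motif is common. The AP-1 motif TGANTCA, present in 6.87% of windows, was in none of these 4. A match describes the letters of the window and not the binding of a factor.

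The members differed in the clusters that held them, and basophils and neutrophils held both the ligand Csf1 and receptor chains. In the WT library Csf1r and Csf2ra were most widespread in the macrophage clusters and the cluster named pDC, Csf2rb in basophils and then in neutrophils (64.7% of cells) and M2-like R2 (59.0%), Csf3r in neutrophils, Csf1 in basophils, and Csf2 in ILC2, whereas Il34 was seen only in the Vsir-/- library.

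**Figure D1:**
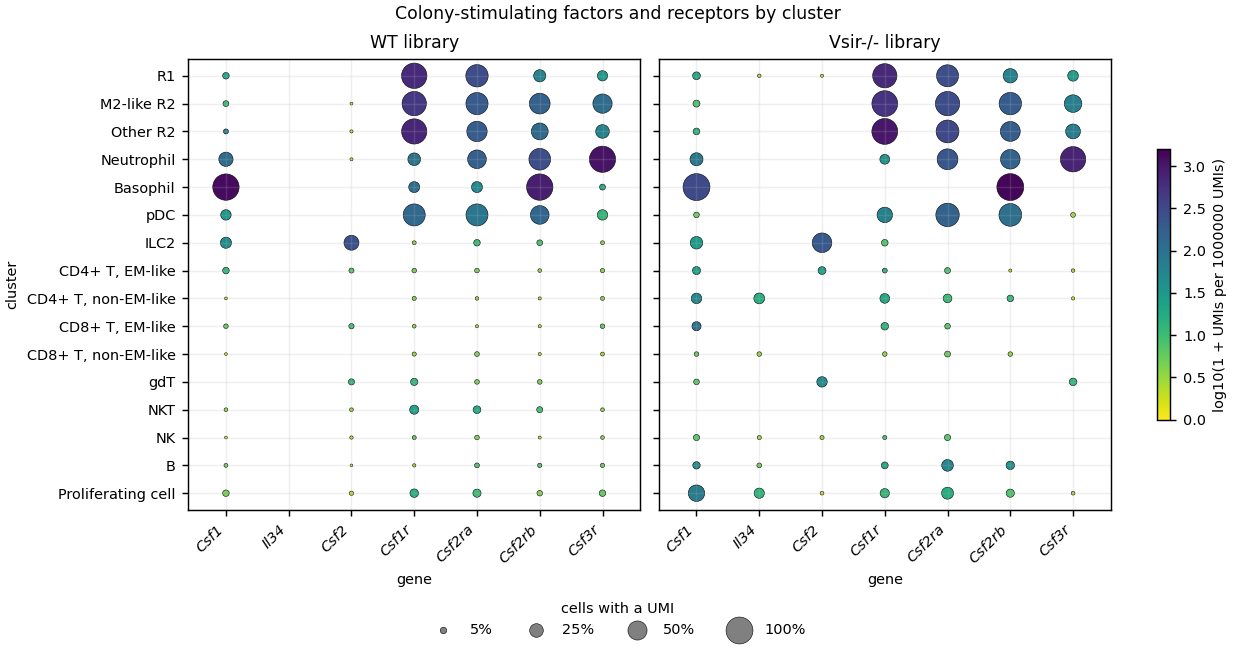
Transcripts of the 7 genes (horizontal axis) in the 16 clusters (vertical axis) of the WT library (left) and the Vsir-/- library (right, which has no NKT cells). Dot area grows with the percent of cells with a UMI and colour gives log10(1 + CPM). The basophil cluster, with 25 WT and 2 Vsir-/- cells, shows the darkest Csf1 dot in the WT panel, and Il34 has no dot in that panel.

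Among ligands, Csf1 was concentrated in rare cells of the WT library. The 25 WT basophils held 187 of the 710 Csf1 UMIs of that library, 26.3% of them, and 24 of these 25 cells were positive. The level in WT basophils was 1286 CPM (1108 to 1484), and the cell with most Csf1 held 30 UMIs, so no single cell set the level. The Vsir-/- library had only 2 basophils with 3 Csf1 UMIs in all, or 303 CPM (62.4 to 884), so that a comparison of this cluster rests on 2 cells. Neutrophils came next in the WT library with 116 CPM (103 to 130), 40.4% of all its Csf1 UMIs and 27.5% of cells positive. Their Csf1 in the Vsir-/- library was 81.1 CPM (62.3 to 104) with 22.8% of cells positive, which made a log2 ratio (Vsir-/- over WT throughout) of -0.51 with a counting interval of -0.93 to -0.11. As a background, B cells had Csf1 in 1.24% of 969 WT cells at a median depth of 3426 UMIs, against 3565 in WT neutrophils. Csf1+ neutrophils were not deeper than the rest in the WT library, with a median of 3584.5 UMIs against 3560.5, and their summed neutrophil markers were lower, at 194543 against 283302 CPM. In the Vsir-/- library the 36 Csf1+ neutrophils had 185397 CPM of neutrophil markers against 309943 CPM in the 122 Csf1- ones. Endothelial markers were at 854 and 111 CPM in these cells, and at 15.2 and 15.9 CPM in WT. In Vsir-/- 1 cell held 12 of the 63 Csf1 UMIs. The part of endothelial transcripts in the neutrophil Csf1 was not tested. The shares of the library's Csf1 UMIs depend on cluster size. With each WT cluster weighted equally, basophils held 78.7% and neutrophils 5.76%.

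Csf1 in the Other R2 macrophages of the WT library came from few cells, and those with most of it also held basophil transcripts. In that cluster the level was 72.6 CPM (58.6 to 88.9) in WT and 12.9 CPM (6.21 to 23.8) in Vsir-/-, but only 5 of 188 WT cells were positive. The 3 cells with most Csf1 held 51, 32 and 6 of the 93 UMIs, and the same cells held 19, 19 and 31 UMIs of the basophil and mast cell list (Mcpt8, Cpa3, Ms4a2, Fcer1a, Gata2). The other 2 positive cells, with 3 and 1 Csf1 UMIs, held none of that list. That list stood at 649 CPM in the Csf1+ cells and at 0.851 CPM in the 183 Csf1- cells of the cluster. Without the leading cell of each library the levels were 33.1 and 9.17 CPM, and by the mean over cells, on the scale ln(1 + UMIs per 10000), the log2 ratio of -2.49 turned to 0.036. In M2-like R2, 18 cells held the 43 WT UMIs. The leading 2 of these cells held 18 and 5 Csf1 UMIs together with 24 and 34 UMIs of the basophil list, and the next 3 cells held 2 Csf1 UMIs each and none of that list. In the Vsir-/- library the 7 Csf1+ cells of Other R2 had 3652 CPM of endothelial markers against 305 CPM in the Csf1- cells. In M2-like R2 the 10 Csf1+ cells had 497 CPM against 40.1 CPM. The share of all these Csf1+ cells that held RNA of more than 1 cell was not tested.

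In the Vsir-/- library, most Csf1 UMIs lay in other clusters, many of whose cells lacked leukocyte transcripts. Of its 783 UMIs, 336 were in the proliferating cluster and 237 in the non-EM-like CD4+ T cluster, where the WT library had 7 and 2. Cells without a Ptprc UMI held 52.6% (49.1 to 56.2) of the Csf1 UMIs of the Vsir-/- library and 9.01% (7.01 to 11.4) of those of the WT library. In the non-EM-like CD4+ T cluster, the 51 Csf1+ Vsir-/- cells had a median of 29888 UMIs and the 298 Csf1- cells 6736.5. Endothelial markers summed to 4415 CPM in the former and 424 CPM in the latter, podocyte markers to 600 and 53.0 CPM, and tubular markers to 7682 and 19927 CPM. The Csf1+ cells of the proliferating cluster likewise had 4829 CPM of endothelial markers against 1145 CPM in the Csf1- cells. Podocyte markers in that cluster were at 444 and 90.0 CPM and tubular markers at 5134 and 10820 CPM. Stromal and mesangial markers went in opposite directions, at 386 CPM in the Csf1+ and 33.6 CPM in the Csf1- cells of the non-EM-like CD4+ T cluster, and at 269 and 1211 CPM in the proliferating cluster. In both clusters the Csf1+ cells thus had more endothelial and podocyte transcripts, fewer tubular transcripts and higher UMI counts. The 6 Csf1+ Vsir-/- B cells differed from these in having more tubular transcripts than the 82 Csf1- cells, 9963 against 5003 CPM, beside 3985 against 165 CPM of endothelial markers. The part of these in the difference between the libraries was not tested.

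Within T cells proper the Csf1 counts were low. EM-like CD4+ T cells had 11.4 CPM (7.81 to 16.1) in WT and 22.8 CPM (16.0 to 31.6) in Vsir-/-, from 32 and 36 UMIs, with a log2 ratio of 1.0 (0.27 to 1.73) that lay just under 1. The same T cell list was near-equal in this cluster, at 5060 and 5129 CPM, while the tubular list stood at 164 and 3442 CPM. Among CD8+ T cells of the EM-like cluster, 13 of the 17 Vsir-/- UMIs lay in 1 cell.

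Il34, the second ligand of CSF1R, was not detected in the WT library. Its 0 UMIs of 32799550 allow a level of up to 0.0915 CPM. The Vsir-/- library had 126 Il34 UMIs in 86 cells, 68 in the non-EM-like CD4+ T cluster and 52 in the proliferating cluster. With 3 UMIs in place of the 0 in the same WT cluster, these levels were 22.0-fold and 7.84-fold higher, without the counting error of the Vsir-/- level. The cells of these clusters differed between the libraries, as given with the cluster names. Of all genes, 47.8% and 37.5% had a log2 ratio above 1 in them. Cells without Ptprc held 76.2% (67.8 to 83.3) of these UMIs. In the non-EM-like CD4+ T cluster the 54 Il34+ cells had 3077 CPM of endothelial and 458 CPM of podocyte markers. The 295 Il34- cells had 1429 and 171 CPM. Tubular markers were at 9188 CPM in these Il34+ and 18075 CPM in the Il34- cells, with median depths of 17373.5 and 6705 UMIs. Of the 54 Il34+ cells, 23 also had Csf1. In the proliferating cluster the 26 Il34+ cells did not have more endothelial markers, at 3423 CPM against 3693 CPM in the 163 Il34- cells. Podocyte markers there were at 382 and 304 CPM and tubular markers at 4697 and 7980 CPM. Median depths were 38836.5 and 12977 UMIs. The macrophage and neutrophil clusters together had 2 Il34 UMIs, both in R1 of the Vsir-/- library.

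Csf2, the gene of GM-CSF, was a lymphoid transcript and was sparse. ILC2, innate lymphocytes that make type 2 cytokines, held 103 of 141 WT UMIs (73.0%) and 30 of 80 Vsir-/- UMIs (37.5%). These shares depend on cluster size, and there were 79 WT and 19 Vsir-/- ILC2. With each cluster weighted equally the shares were 87.9% and 77.0%. The level in ILC2 was 255 CPM (208 to 310) in WT and 206 CPM (139 to 294) in Vsir-/-, a log2 ratio of -0.31 (-0.95 to 0.29) whose interval includes 0. By the mean of the logarithm over cells the ratio was 0.75. The transcripts were unevenly spread over cells, since 24 of 79 WT ILC2 were positive and the leading cells held 28, 16 and 14 UMIs. B cells had 1 Csf2 UMI in the WT library and 0 in the Vsir-/- library. Il5, which encodes another type 2 cytokine that signals through Csf2rb, had 49 WT and 7 Vsir-/- UMIs in ILC2.

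EM-like CD4+ T cells held the other main share of Csf2, in the Vsir-/- library more than ILC2 (38 against 30 of 80 UMIs). In the EM-like CD4+ T cells Csf2 had 16 UMIs or 5.71 CPM (3.26 to 9.27) in WT and 38 UMIs or 24.1 CPM (17.0 to 33.1) in Vsir-/-. This made a log2 ratio of 2.08 (1.2 to 3.02). Positive cells were 13 of 489 in WT and 19 of 244 in Vsir-/-, or 2.66% and 7.79%, which became 1.46% and 1.66% after each cell was thinned to 1000 UMIs. The leading Vsir-/- cell held 9 UMIs, and without the leading cell of each library the levels were 5.01 and 18.5 CPM. No Csf2 UMI was found in the 895 WT and 349 Vsir-/- non-EM-like CD4+ T cells. Csf3, the gene of G-CSF, was listed in the matrix without a UMI in any of the 7314 cells.

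**Figure D2:**
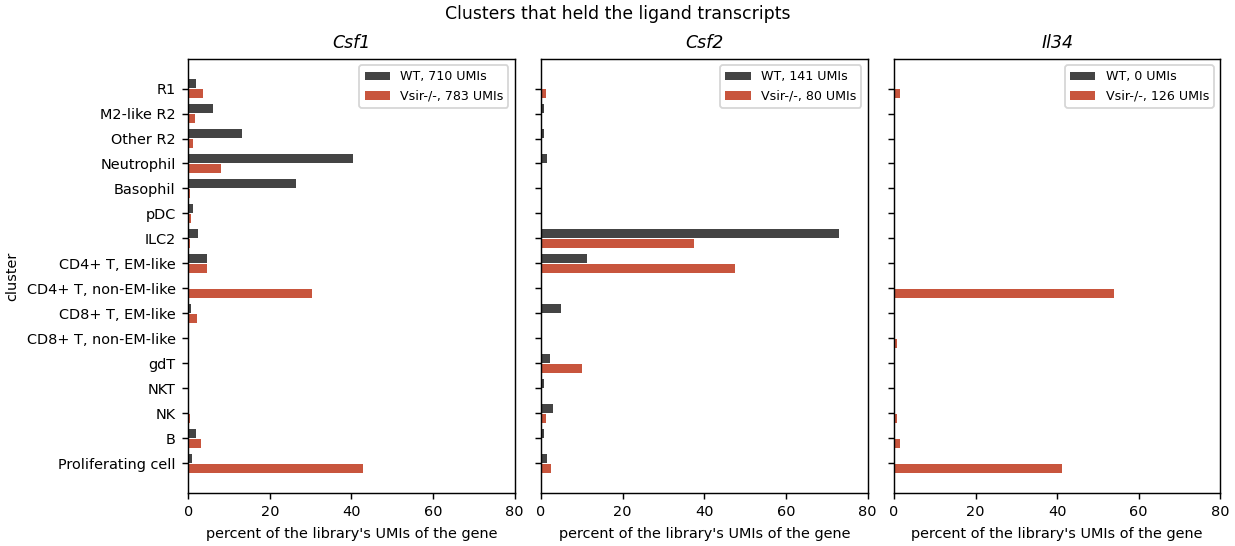
Percent of the Csf1, Csf2 and Il34 UMIs of each library (horizontal axis) held by each cluster (vertical axis), with WT in grey and Vsir-/- in red, and the total UMIs in the legend. The longest Csf1 bars are neutrophils (40.4%) and basophils (26.3%) in WT and the proliferating (42.9%) and non-EM-like CD4+ T clusters (30.3%) in Vsir-/-. The shares depend on the number of cells in each cluster.

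Among receptors, Csf1r marked the 3 macrophage clusters in both libraries. In WT it stood at 719 CPM (673 to 767) in Other R2, 661 CPM (601 to 724) in R1 and 476 CPM (456 to 497) in M2-like R2. The intervals of Other R2 and R1 overlapped, and M2-like R2 lay below both. In Vsir-/- the order was the same, with 999 CPM (930 to 1072) in Other R2, 670 CPM (631 to 711) in R1 and 529 CPM (495 to 565) in M2-like R2, and none of these intervals overlapped. The shares of positive cells were 87.8%, 88.8% and 81.6% in WT, and 92.4%, 81.0% and 91.7% in Vsir-/-, against 0.619% of WT and 5.68% of Vsir-/- B cells. Median depths were 5210, 4868.5 and 9699 UMIs per cell in these WT clusters and 3426 in WT B cells, and 6093, 5921, 10074 and 3596.5 UMIs in Vsir-/-.

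The log2 ratio was 0.02 (-0.14 to 0.18) in R1 and 0.15 (0.04 to 0.26) in M2-like R2. In Other R2 Csf1r was higher in Vsir-/- by 0.47 (0.33 to 0.61). The C1q genes, Adgre1, Cd68, Lyz2 and Mertk, taken as a macrophage list, were at 7272 and 7972 CPM in that cluster. Markers of lymphocytes were lower there in Vsir-/-, with B cell genes at 1188 against 7.76 CPM and T cell genes at 320 against 6.47 CPM, and tubular genes were higher, at 566 against 2879 CPM. Their part in the Csf1r ratio was not tested.

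Csf1r was also present at lower levels in neutrophils and in the cluster named pDC, and there it was lower in Vsir-/-. Neutrophils had 91.9 CPM (80.4 to 105) in WT and 37.3 CPM (25 to 53.6) in Vsir-/-, a log2 ratio of -1.30 (-1.91 to -0.74), with 21.6% and 12.7% of cells positive. The 113 positive WT neutrophils had 337 CPM of C1q transcripts against 7.89 CPM in the 411 negative ones. A C1q UMI was in 4.42% and 3.16% of these cells, and Csf3r in 107 of the 113 and 390 of the 411. The macrophage list was at 5608 against 4490 CPM, the monocyte list at 1507 against 1009 CPM and the neutrophil list at 218572 against 272883 CPM. Among Vsir-/- neutrophils the macrophage list was at 6472 CPM in the positive and 6735 CPM in the negative cells. The part of macrophage or monocyte transcripts in the Csf1r of neutrophils was not tested. The cluster named pDC had 136 CPM (95.3 to 188) in the 21 WT cells and 63.4 CPM (49.9 to 79.5) in the 86 Vsir-/- cells, a log2 ratio of -1.10 (-1.69 to -0.49). With each cell thinned to 1000 UMIs, which left 2 and 8 UMIs, this ratio was -0.034. The dendritic cell lists in that cluster differed between the libraries, as given with the cluster names, and their part in the ratio was not tested. Basophils had 17 Csf1r UMIs in 4 of 25 WT cells.

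Csf1 and its receptor were in part detected in the same cells. All 6 Csf1+ R1 cells of the WT library and all 18 of the Vsir-/- library had Csf1r, whereas 38 of 144 Csf1+ WT neutrophils and 9 of 36 Csf1+ Vsir-/- neutrophils had it. With or without Csf1, Csf1r was in 103 of 116 WT and 192 of 237 Vsir-/- R1 cells, and in 113 of 524 and 20 of 158 neutrophils. The contrast between these clusters thus largely repeats how common Csf1r was in each. In M2-like R2, 15 of 18 and 10 of 10 Csf1+ cells had Csf1r, and in Other R2 5 of 5 and 7 of 7. The Csf1+ R1 cells were deeper than the Csf1- ones and held more transcripts of other cell types. In WT their median was 7250 against 4759.5 UMIs, with 364 against 0 CPM of the basophil list. In Vsir-/- it was 15082.5 against 5848 UMIs, with 4579 against 260 CPM of endothelial markers. The part of depth and of these transcripts in the co-detection was not tested.

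**Figure D3:**
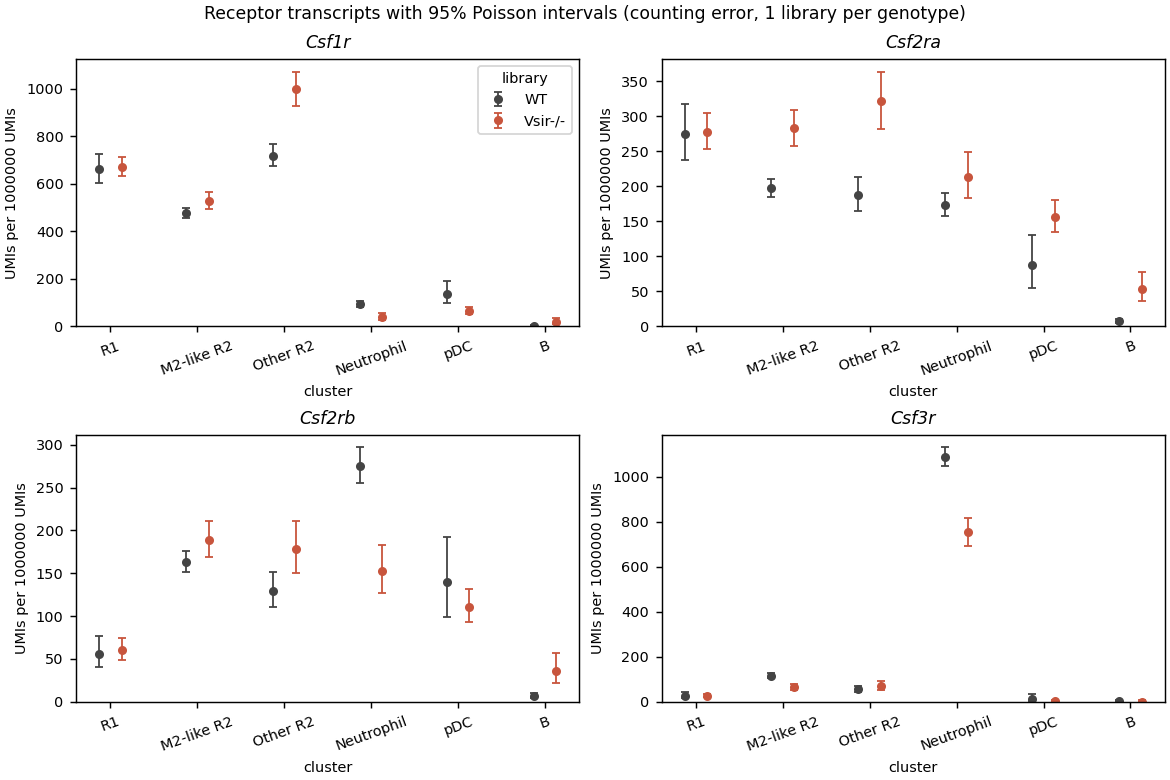
CPM of the 4 receptor genes (vertical axes, each from 0) in the 3 macrophage clusters, neutrophils, the cluster named pDC and B cells, for the WT library (grey) and the Vsir-/- library (red). Bars are 95% Poisson intervals of 1 library each. The widest gaps are those of Csf1r in Other R2 (719 against 999 CPM) and of Csf3r in neutrophils (1089 against 753 CPM).

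Csf2ra, the ligand-specific chain of the GM-CSF receptor, was present in all macrophage clusters and in neutrophils. It was at 275 CPM (237 to 317) in R1, 197 CPM (184 to 211) in M2-like R2, 187 CPM (164 to 213) in Other R2 and 173 CPM (157 to 190) in neutrophils, and the last 3 intervals overlapped from each to the next. In Vsir-/- the values were 278 CPM (253 to 305), 282 CPM (257 to 309), 321 CPM (282 to 363) and 214 CPM (182 to 249). R1 had a log2 ratio of 0.02 (-0.23 to 0.27), and the R2 clusters were higher in Vsir-/-, by 0.52 (0.35 to 0.68) in M2-like R2 and by 0.78 (0.51 to 1.04) in Other R2. The neutrophil ratio was 0.31 (0.04 to 0.57), but it turned to -0.52 when each cell was thinned to 1000 UMIs, which left 85 WT and 18 Vsir-/- UMIs. B cells had 7.18 CPM in WT and 53.4 CPM in Vsir-/-, where 16 of 88 cells were positive. These 16 cells had 2680 CPM of endothelial markers against 196 CPM in the other 72, and 1256 against 450 CPM of the macrophage list. C1q transcripts, part of that list, were at 225 against 193 CPM, and 18.8% against 34.7% of the cells had a C1q UMI. The part of these transcripts was not tested.

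Csf2rb, the shared signalling chain, was highest in basophils, which respond to IL-3. All but 1 of the 25 WT basophils were positive and the level was 846 CPM (703 to 1009), while the 2 Vsir-/- basophils held 14 UMIs. Neutrophils had 276 CPM (255 to 297) in WT and 153 CPM (127 to 183) in Vsir-/-, a log2 ratio of -0.85 (-1.14 to -0.57). The macrophage clusters were in the other direction, with 163 against 189 CPM in M2-like R2, a log2 ratio of 0.21 (0.01 to 0.40), and 130 against 179 CPM in Other R2, a ratio of 0.46 (0.13 to 0.80). R1 had the lowest level of the macrophage clusters, at 56.1 CPM (39.9 to 76.7) in WT and 60.6 CPM (49.1 to 73.9) in Vsir-/-, and the cluster named pDC had 140 and 111 CPM with a ratio of -0.34 (-0.87 to 0.23).

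Csf2rb has a close paralog, Csf2rb2, an IL-3 specific beta chain of the mouse. Of the 91-base windows of the 4900-base Csf2rb transcript (GENCODE vM21), 8.05% also occurred in Csf2rb2 without a mismatch, but 0 of the 910 windows in the last 1000 bases did, the part nearest to where 3' reads fall. Csf2rb2 had 210 UMIs in the WT library and 199 in the Vsir-/- library. Its values were 19.6 against 41.2 CPM in M2-like R2, a log2 ratio of 1.07 (0.59 to 1.55), and 26.6 against 12.9 CPM in neutrophils, a ratio of -1.05 (-2.17 to -0.08).

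A functional GM-CSF receptor needs both chains, and both were seen together in a part of the cells. Both chains were detected in 50.4% of WT and 62.5% of Vsir-/- M2-like R2 cells, in 28.7% and 43.5% of Other R2 cells, in 18.1% and 26.6% of R1 cells and in 32.8% and 34.8% of neutrophils. In B cells the shares were 0% of 969 WT cells, which allows up to 0.310%, and 6.82% of 88 Vsir-/- cells. In R1 the alpha chain alone was in 50.9% of WT and 40.1% of Vsir-/- cells, and the beta chain alone in 1.72% and 1.27%. In neutrophils the beta chain alone was in 31.9% of WT and 17.7% of Vsir-/- cells. After thinning to 1000 UMIs, the shares with both chains were 3.18% and 3.14% among M2-like R2 cells, from 13 WT and 5 Vsir-/- cells, and 3.33% and 3.15% among Other R2 cells, from 6 and 4 cells, too few to show a difference between the libraries or its absence. At that depth the share of Other R2 cells with Csf2ra alone was 15.0% (10.1 to 21.1) in the WT library against 26.8% (19.3 to 35.4) in the Vsir-/- library, and the share with neither chain was 70.6% (63.3 to 77.1) against 56.7% (47.6 to 65.5). Thinned neutrophils went the other way. Neither chain was seen in 62.8% (58.4 to 67.1) of WT and 77.8% (70.4 to 84.1) of Vsir-/- neutrophils. Both were seen in 4.97% and 3.27%, from 25 and 5 cells. In thinned R1 both chains were in 1.83% and 2.83%, from 2 and 6 cells.

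**Figure D4:**
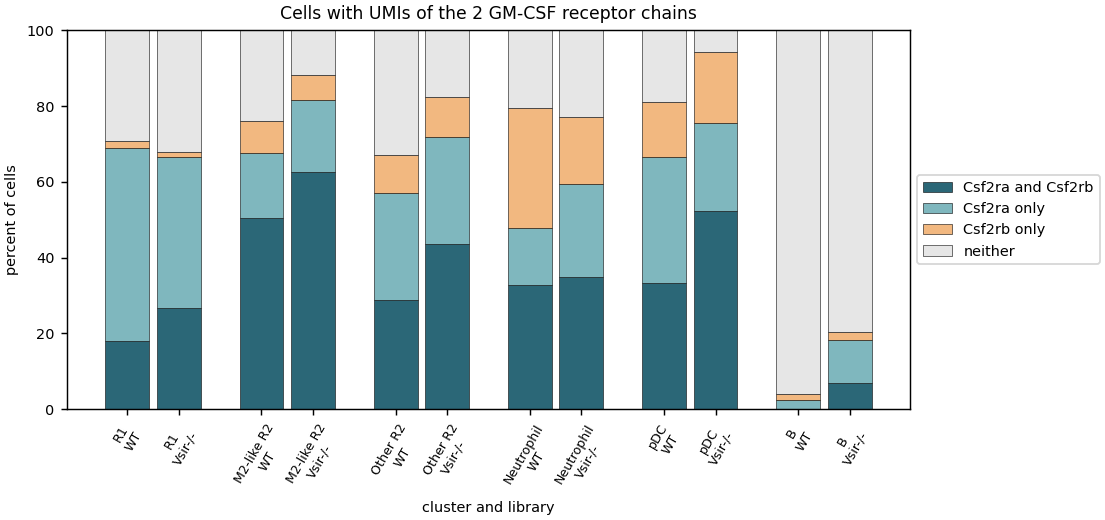
Percent of cells (vertical axis) with UMIs of both GM-CSF receptor chains, of Csf2ra alone, of Csf2rb alone or of neither, by cluster and library, without thinning. Cells with both chains make up 50.4% of WT and 62.5% of Vsir-/- M2-like R2 cells and are not seen among WT B cells.

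Csf3r was mostly found in neutrophils, which held 79.9% of its 3381 WT UMIs and 72.8% of its 804 Vsir-/- UMIs, with 94.8% and 88.6% of cells positive. The level was 1089 CPM (1049 to 1131) in WT and 753 CPM (693 to 816) in Vsir-/-, a log2 ratio of -0.53 (-0.66 to -0.40). The neutrophil marker list (S100a8, S100a9, Ly6g, Cxcr2, Retnlg) was not lower in that cluster, at 257425 CPM in WT and 283463 CPM in Vsir-/-, while Cxcr2 alone was at 961 and 658 CPM.

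Csf3r was also found in macrophages. Its level was highest in M2-like R2 in the WT library, while in Vsir-/- the intervals of M2-like R2 and Other R2 overlapped. In M2-like R2, 215 of 456 WT and 66 of 168 Vsir-/- cells had both Csf1r and Csf3r. The Csf3r level there was 116 CPM (106 to 126) in WT and 64.5 CPM (52.9 to 77.8) in Vsir-/-, a log2 ratio of -0.85 (-1.16 to -0.54). The neutrophil marker list moved with it, from 4204 CPM in WT to 177 CPM in Vsir-/-, where Ly6g was at 0. Within the WT cluster the Csf3r+ cells had 4566 CPM of that list and the Csf3r- cells 3547 CPM, with median depths of 11351.5 and 6558 UMIs. The part of neutrophil transcripts in the Csf3r difference was not tested. In Other R2 the neutrophil list was likewise lower, 3548 against 142 CPM, but Csf3r was 57.0 against 71.2 CPM, with a log2 ratio of 0.32 (-0.21 to 0.85). R1 had 27.3 and 26.2 CPM. B cells had Csf3r in 1.65% of WT cells and in none of 88 Vsir-/- cells, a count of 0 that leaves room for up to 3.41% of cells.

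The 7 genes and the 15 clusters present in both libraries gave 105 pairs. Of these, 59 had under 20 UMIs over both libraries, 2 had only a bound because the WT count was 0, and 2 had 3 or fewer UMIs in a library and are left out of the following counts (Csf1 in basophils and in the non-EM-like CD4+ T cluster). Of the other 42 pairs, 11 had a log2 ratio above 1, 3 had one below -1 and 28 lay between. Of the 11, 3 were in the non-EM-like CD4+ T cluster, where 47.8% of all genes with at least 20 UMIs were above 1, 2 were in the proliferating cluster with 37.5% and 3 were in B cells with 16.3%. Of the rest, 2 were in EM-like CD4+ T cells with 10.4% and 1 was in EM-like CD8+ T cells with 6.03%. The pair above 1 in EM-like CD4+ T cells was Csf2 and Csf1r, and for Csf1r 17 of the 22 Vsir-/- UMIs lay in 1 cell. The 3 below -1 were Csf1 in Other R2, where 9.52% of genes were below -1, Csf1r in neutrophils with 10.6% and Csf1r in the cluster named pDC with 10.1%. In R1 and M2-like R2 no member passed either limit, while 13.6% and 8.11% of all genes were above 1 and 8.78% and 7.61% below -1.

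**Figure D5:**
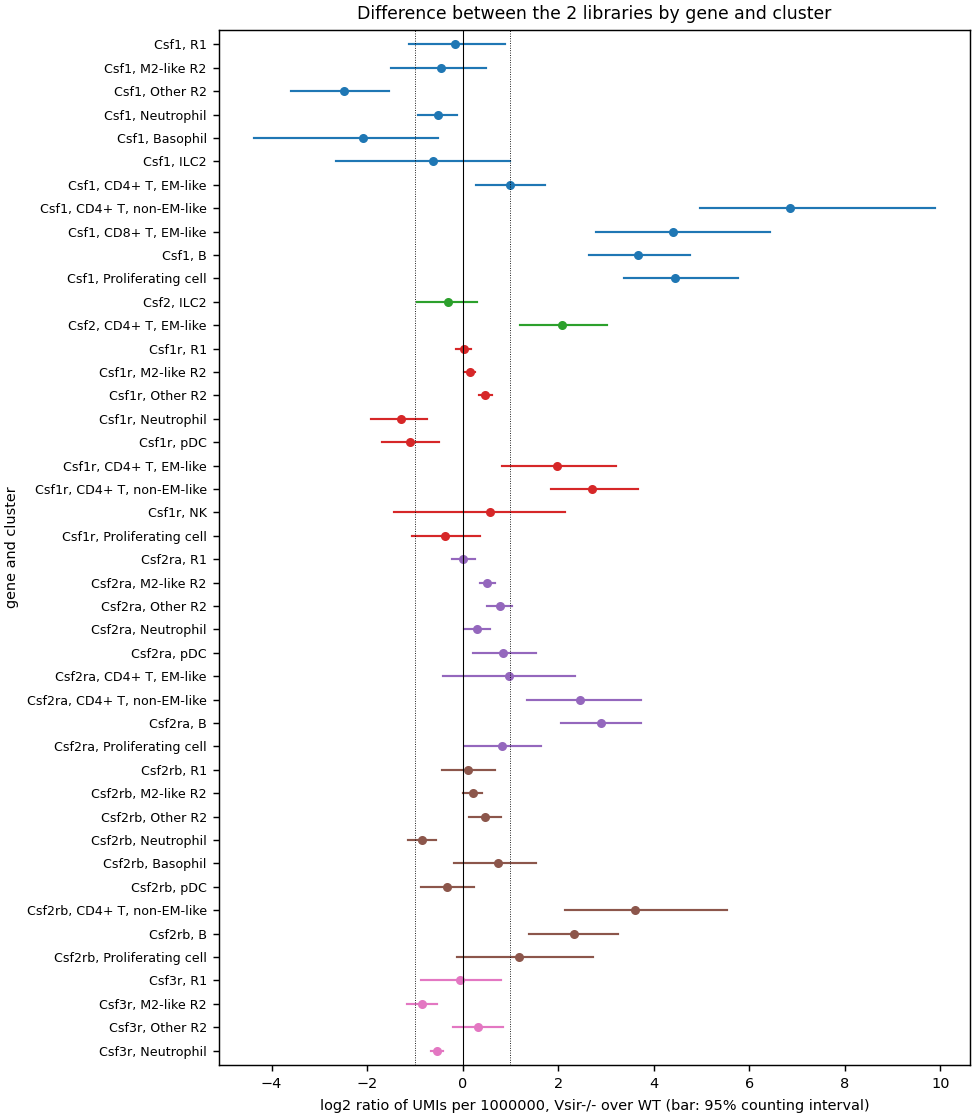
Log2 ratio of CPM, Vsir-/- over WT (horizontal axis), for the 42 pairs of gene and cluster and the 2 pairs with 3 or fewer UMIs in a library (vertical axis, coloured by gene). Bars are 95% counting intervals and dotted lines mark -1 and 1. The receptor genes in R1 lie on 0, and the 5 points farthest to the right are those of Csf1 and Csf2rb in clusters with kidney cell transcripts or few cells.

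The wider pathway was followed through 78 further genes in the macrophage and neutrophil clusters, with 0.5 UMIs added before each ratio. In M2-like R2, 69 genes had at least 20 UMIs, of which 13 were above 1 and 8 below -1, and the median log2 ratio was -0.06 beside 0.01 for all genes. In that cluster 8.11% and 7.61% of all genes were past the same limits. The 21 kinases, STATs and other transducers were all between the limits there and in Other R2. Below -1 were 2 of them in R1 (Stat5a, from 13 and 8 UMIs, and Pik3cd) and 1 in neutrophils (Gab2). Their median in R1 was -0.37 beside -0.01 for all genes. In Other R2, 6 of 60 genes were above 1 and 10 below -1, beside 6.71% and 9.52% of all genes, and in neutrophils 2 of 64 were above 1 and 6 below -1, beside 9.99% and 10.6%. In R1 the counts were 6 above and 6 below of 59, beside 13.6% and 8.78% of all genes.

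Genes known to respond to CSF-1 were placed above 1 in 4 of 9 cases in M2-like R2, where 8.11% of all genes were. Mrc1, the mannose receptor, was at 4.10 CPM in WT and 46.6 CPM in Vsir-/-, and Ccnd1, a cyclin of the G1 phase, at 5.46 and 53.7 CPM. Other transcripts of this cluster moved with them, C1qa from 31.9 to 378 CPM and the conventional dendritic cell list from 586 to 3219 CPM, and the part of a different make-up of the cluster was not tested. In R1, Mrc1 was at 112 and 302 CPM and Ccnd1 at 180 and 400 CPM, which made 2 of 9 genes beside 13.6% of all genes. The tubular list was also higher in R1 of the Vsir-/- library, as given with the cluster names, and its part was not tested. Ccnd1 was not raised in macrophages alone. It was at 3.12 and 29.8 CPM in Other R2 and at 0.403 and 25.7 CPM in neutrophils, the latter from 1 and 20 UMIs. In Other R2, 2 of 7 genes known to respond to CSF-1 were above 1 and 2 below -1, beside 6.71% and 9.52% of all genes. Cd14, a lipopolysaccharide co-receptor, was at 101 and 272 CPM there, at 408 and 466 CPM in M2-like R2, but at 610 and 378 CPM in R1. The 2 below -1 in Other R2 were Fcgr1, at 67.1 and 29.8 CPM, and Myc, with 20 and 0 UMIs. Fcgr1 was also lower in M2-like R2, at 298 and 188 CPM, but not in R1, at 289 and 388 CPM.

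Genes known to respond to GM-CSF were above 1 in 3 of 8 cases in M2-like R2, where 8.11% of all genes were. Ccl17, a chemokine of dendritic cells and macrophages, had 0 WT and 51 Vsir-/- UMIs, Mgl2, a lectin, was at 1.59 and 103 CPM, and Cd9, a tetraspanin, at 35.3 and 180 CPM. The dendritic cell list given above moved with these genes too, and its part was not tested. Cish, a feedback inhibitor that STAT5 induces, was at 4.33 and 11.9 CPM from 19 and 20 UMIs. Stat5a, at 29.4 and 15.5 CPM, and Stat5b, at 49.6 and 28.7 CPM, went the other way. Socs1 was at 18.9 and 13.7 CPM, Socs3 at 252 and 243 CPM and Pim1 at 746 and 827 CPM. Of the genes known to respond to GM-CSF, Ccl17 and Cd9 were also above 1 in R1. These were 2 of 7 there, with 1 below -1 (Itga4), beside 13.6% and 8.78% of all genes. In Other R2, 0 of 5 were above 1 and 1 below -1, beside 6.71% and 9.52%. In neutrophils 0 of 6 passed either limit, beside 9.99% and 10.6%.

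Genes known to respond to G-CSF were below -1 in 8 of 10 cases in M2-like R2 and in 7 of 10 in Other R2. Of all genes, 7.61% and 9.52% were below -1 in these clusters. The medians of the genes known to respond to G-CSF were -3.56 and -3.37. In R1, 3 of 4 were below -1, beside 8.78% of all genes, with a median of -2.69 and S100a8 at 760 and 41.2 CPM. S100a8, a calprotectin subunit, was at 2204 and 122 CPM in M2-like R2, and Camp, a granule peptide, at 102 and 4.18 CPM. These are transcripts of neutrophils, some of which are also in the neutrophil marker list above. In the neutrophils themselves only Prok2, a prokineticin, was below -1 among the 11 genes (163 and 48.9 CPM), the median was -0.02, and Camp was at 2805 and 5372 CPM. Socs3, the feedback inhibitor of the G-CSF receptor, was at 237 and 102 CPM in neutrophils but at 101 and 269 CPM in Other R2 and 51.8 and 121 CPM in R1.

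Genes whose levels followed a member across the 16 WT clusters were listed from 8873 genes by the Pearson correlation of log2(CPM + 1), as a description. For Csf1 the leading gene was Tbl1xr1 with r of 0.90, followed by Alox5 and Hdc with 0.90, and over the 13 Vsir-/- clusters with at least 20 cells, which leave out basophils, r was -0.04, 0.05 and 0.39. Csf1r was most like Ifi207, Clec4a3 and Cd302 (0.96 each) and Csf2ra most like Lst1 (0.98), Oas1g and Mpeg1. Csf2rb was most like Nfam1 (0.96), Alox5ap and Atp6v1b2, and Csf3r most like Bst1 (0.96), Slfn4 and Hp. The clusters share a library and differ in depth.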

How the data were processed

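The deposited count matrix (UMI counts per gene and cell) and the deposited cell table (genotype, cluster and percent of mitochondrial transcripts) were used. Per the labels, liberase (0.2 mg/ml, 30 min, 37°C) was used to dissociate kidneys, and 3' libraries were made on the 10x Chromium. The submitters' processing notes name Cell Ranger 3.1.0, R 4.0.3, Seurat 3.2.3 and the build mm9. The authors kept cells with at most 10% mitochondrial UMIs, and they assigned the clusters. The matrix held 7314 cells with at least 501 UMIs, and 5 barcodes occurred in both libraries. No doublet caller was run here and no cell was removed as a doublet.

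For each cluster of a library UMIs were added up and divided by all UMIs of the same cells (CPM). Intervals at the 95% level were exact Poisson for levels, Clopper-Pearson for shares and conditional binomial for ratios, and a count of 0 was limited at 3 UMIs. Ratios needed 20 UMIs over both libraries and over 3 in each, and a log2 ratio above 1 or below -1 was counted. For all genes and for pathway genes 0.5 UMIs were added, and 3 or fewer UMIs in a library were allowed. Shares were recomputed after thinning each cell to 1000 UMIs, which left out 167 WT and 78 Vsir-/- cells. The intervals cover counting error only, not the variation between mice or the uneven spread of UMIs over cells. Ratios and their intervals were tested on simulated Poisson counts, and thinning was not. Such counts share the assumption of the intervals and lack the uneven spread over cells, so they cannot show how the intervals hold under it. All 7 members were named, and every pathway or marker gene could be. The 3 genes most alike were taken for each member with at least 200 WT UMIs. The members, lists and rules were chosen with earlier results of these data known. Coordinates are given for RefSeq promoters only, since the files' build differs. Python 3.11.15, numpy 2.4.6, scipy 1.17.1 and pandas 2.3.3 were used.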

Additional observations from a re-analysis of the deposited data

Results flagged for a closer look

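Some members were higher in the Vsir-/- library in one cluster and lower in another, with both counting intervals off 0. These contrasts were read from 1 library per genotype, and the differences between clusters were not tested. Csf1r was higher in M2-like R2 and lower in neutrophils, a gap of 1.45 on the log2 scale, and lower in the cluster named pDC, a gap of 1.25. For Other R2 the same gaps of Csf1r were 1.77 against neutrophils and 1.58 against the cluster named pDC. Csf2rb was higher in M2-like R2 and in Other R2 and lower in neutrophils, with gaps of 1.06 and 1.31. Csf1 was higher in EM-like CD4+ T cells and lower in neutrophils, with a gap of 1.51.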

How the results depend on the processing

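Each ratio was recomputed with other cells, scalings and counts. With each cell thinned to 1000 UMIs, Csf2ra in neutrophils reversed to -0.52, Csf1 in neutrophils moved to -0.99, Csf1r moved to 0.32 in Other R2, -0.18 in R1 and -0.034 in the cluster named pDC, and Csf2ra moved to 0.15 in M2-like R2 and 0.35 in R1. Thinning left few UMIs, for example 2 WT and 8 Vsir-/- UMIs of Csf1r in the cluster named pDC. When cells were averaged on the scale ln(1 + UMIs per 10000) instead of summing UMIs, Csf2 in ILC2 moved to 0.75, Csf1r to 0.44 in M2-like R2 and -0.35 in R1, Csf2ra to 0.70 in M2-like R2, Csf2rb to 0.42 in M2-like R2, 0.81 in Other R2 and 0.27 in the cluster named pDC, and Csf3r to -0.52 in M2-like R2 and -0.76 in neutrophils, while Csf1 in Other R2 reversed to 0.036. Without the leading cell of each library, Csf1r in EM-like CD4+ T cells reversed to -0.010. Without cells of over 20000 UMIs, an alternative chosen after seeing the data, Csf1r in the proliferating cluster changed sign, from -0.37 (-1.07 to 0.36), an interval that includes 0, to 2.59. With 50 in place of 20 UMIs required, the pathway genes past the fold were 9 in Other R2 and 4 in neutrophils, in place of 16 and 8, since fewer genes entered. With each cluster weighted equally in the shares of UMIs, 31 values moved and 6 stayed, since the shares depend on cluster size. The causes of the other changes were not tested. The ratios of the 22 pairs with at least 25 UMIs in each library kept their direction and stayed within their intervals when only Ptprc+ cells, only cells with at most 5% mitochondrial UMIs, another denominator, 0.5 added UMIs or centring on the median of all genes was used. No paired analysis was possible because each genotype had 1 library, so that no library could be left out either. Depth limits Csf2, Il34 and all members in lymphoid clusters.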
